A study of Homo sapiens with 14 samples.

Results

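MALAT1, NEAT1, KCNQ1OT1, GAS5 and SNHG1 are genes of long noncoding RNAs. All transcripts listed at their loci, those of overlapping genes included, were followed in HEK293T cells lacking SETD2 and in wild type HEK293T cells. The members are all transcript rows of the deposited tables whose hg19 locus contains a fixed point within one of these 5 genes. They number 94 of 204092 transcripts: 4 at MALAT1, 4 at NEAT1, 9 at KCNQ1OT1, 43 at GAS5 and 34 at SNHG1. SETD2 trimethylates lysine 36 of histone H3 along transcribed genes. HEK293T, a transformed line derived from human embryonic kidney, expresses the large T antigen of SV40. The groups were SETD2 knockout and wild type cells of this line, with 3 RNA libraries listed for each. The labels give no time point or treatment, and do not say how the knockout was made or whether it is a single clone.

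The deposited values are FPKM (fragments counted per transcript, corrected for its length and for sequencing depth), as the authors' value per transcript and group. Values of single libraries and read counts were not used here, so the spread between libraries cannot be computed and the depth is unknown. Errors given below are the intervals of the authors' tracking table, and their confidence level is unstated. Between that table and the authors' table of tests, wild type values differ by a nearly constant factor and knockout values by varying ones. The test table supplies the levels and folds below wherever no table is mentioned, and folds are knockout over wild type. The tables carry no gene names, and no source used here pairs SETD2 or markers of the cell line with a transcript ID or an hg19 position, so neither was checked. In bulk RNA, fewer cells of a kind and less RNA per cell cannot be told apart.

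MALAT1 RNA is known for its place in nuclear speckles, and its end is cut off as a small tRNA-like RNA. NEAT1 RNA builds paraspeckles, nuclear bodies around its long isoform, and a short isoform starts at the same promoter. KCNQ1OT1 is transcribed antisense inside KCNQ1, a potassium channel gene, and silences imprinted neighbours on the same chromosome. GAS5 and SNHG1 are hosts of small nucleolar RNAs (snoRNAs): these guides of ribosomal RNA modification are cut from the introns, while the spliced exons are turned over quickly in the cytoplasm. RefSeq (GRCh38.p14) places 11 snoRNA genes inside GAS5, 9 inside SNHG1 and the microRNA gene MIR612 inside NEAT1. It also lists TALAM1 antisense to MALAT1, and ZBTB37 and GAS5-AS1 overlapping GAS5. The sources used here do not state whether strand was used in counting, so reads of a gene and of its antisense partner cannot be told apart.

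None of the 94 members passed the authors' test. Of the 61 members tested in the authors' deposited table, 0 had a q-value of 0.05 or less (Cuffdiff), against 0.255% of all 85852 tested transcripts. By direction, 0 were called higher and 0 lower in knockout cells, against 0.0629% and 0.192% of all tested transcripts. At an unadjusted p of at most 0.05 the count was also 0, against 2.39% of all tested transcripts, and the smallest p of a member was 0.08995. Every tested member had a q between 0.991 and 0.992 in the authors' deposited table. The other 33 members were not tested. A share of 0.255% makes 0 of 61 a count that says little about these genes.

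Very deep loci can be skipped by the software with the status HIDATA, which 24 transcripts of the whole table carried. It was not carried by any of the 94 members, and neither was the status FAIL, so no member value is a failed estimate by its status. Both groups were listed at 0 for 23 members, and 18 more stayed under 1 FPKM in both groups. The remaining 53 reached 1 FPKM in a group, and 45 of these were above 0 in both groups.

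The 5 loci differed widely in level. Summed over transcripts, SNHG1 held 4164 FPKM in knockout cells and 3540 FPKM in wild type cells. GAS5 held 2983 FPKM in knockout cells and 2364 FPKM in wild type cells. NEAT1 stood at 203.6 FPKM in knockout cells and 87.0 FPKM in wild type cells. MALAT1 stood at 22.3 FPKM in knockout cells and 20.7 FPKM in wild type cells, and the locus of KCNQ1OT1 at 2.27 FPKM in knockout cells and 1.46 FPKM in wild type cells. This order was the same in both groups. Adding up the lower and the upper bounds of the transcripts, which gives wider limits than a sum has, left SNHG1, GAS5, NEAT1 and MALAT1 overlapping each with its neighbour in both groups. Among neighbours in this order, only MALAT1 and KCNQ1OT1 were apart, with summed limits of 9.26 to 31.4 FPKM and 0.0327 to 6.69 FPKM in knockout cells. In the wild type these limits were 8.94 to 33.9 FPKM for MALAT1 and 0.205 to 4.63 FPKM for KCNQ1OT1.

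Abundance by this measure held for some of the loci and not for others. Percentiles were taken among the loci above 0 in each group, 16717 in knockout cells and 19531 in wild type cells. With these unlike bases, a percentile that differs between groups does not show a change in level. SNHG1 lay at the 99.9 percentile in knockout cells and the 99.8 percentile in wild type cells. GAS5 lay at 99.8 in knockout and 99.7 in wild type cells. NEAT1 lay at 94.2 in knockout cells and 89.0 in wild type cells. By its locus sum MALAT1 was in the middle range, at 67.3 in knockout cells and 71.6 in wild type cells. Such sums favour loci with many listed transcripts. Ranked among single transcripts above 0, its ENST00000534336 lay at 87.3 in knockout and 88.1 in wild type cells. On that scale ENST00000544868 lay at 86.8 in knockout and 89.3 in wild type cells. The locus of KCNQ1OT1 lay at 35.3 in knockout cells and 40.6 in wild type cells. The transcripts of highest mean FPKM at GAS5, SNHG1 and NEAT1, described below, each have a lower bound of 0 in both groups. At NEAT1 that transcript held 58.6% of the knockout sum and 14.7% of the wild type sum, and it may not be NEAT1 RNA. The files do not say which transcripts at GAS5 and SNHG1 are snoRNAs, so those sums are not levels of the host RNAs alone. Transcripts with an interval starting above 0 in both groups summed to 172.6 FPKM (knockout) and 163.1 FPKM (wild type) at SNHG1. At NEAT1 they summed to 84.3 FPKM (knockout) and 74.2 FPKM (wild type), and at MALAT1 to 22.3 FPKM (knockout) and 20.0 FPKM (wild type). GAS5 had 0 such transcripts.

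**Figure D1:**
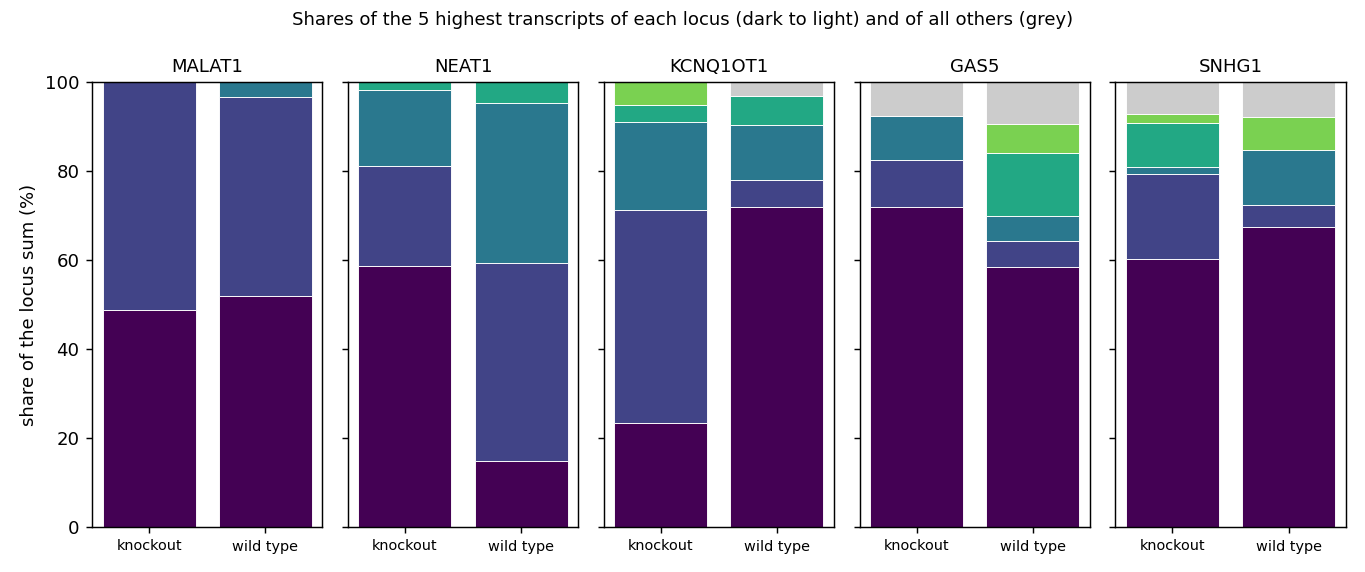
Each pair of bars splits the FPKM sum of a locus in knockout cells (left) and the wild type (right), in percent, among up to 5 transcripts of highest mean FPKM, from dark to light, and all other transcripts in grey. At GAS5 the darkest bar holds 72.0% in knockout cells and 58.5% in wild type cells, at SNHG1 60.3% (knockout) and 67.5% (wild type), and at NEAT1 58.6% (knockout) and 14.7% (wild type).

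A deposited interval above 0 in both groups was uncommon among the members and among all transcripts of their level. Of the 53 members of at least 1 FPKM, 8 had an interval that started above 0 in both groups (15.1%, against 19.5% of all transcripts of that level). They were 2 transcripts of MALAT1, 3 of NEAT1 and 3 of SNHG1. These intervals are still wide, reaching 44.0% to 88.8% of the value to either side in knockout cells and 45.2% to 93.9% in wild type cells. All 8 had a fold between 0.819 and 1.24 in the test table and between 0.728 and 1.30 in the tracking table. Their median absolute log2 fold was 0.20, beside 0.27 over the 11752 transcripts of the same kind in the whole table that were above 0 in both groups. Of those transcripts 17.2% differed at least 1.5-fold, and 0 of the 8 members did, which says little at that share and with so few members. The knockout value was the higher one for 5 of the 8 in the test table and for 3 of the 8 in the tracking table.

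**Figure D2:**
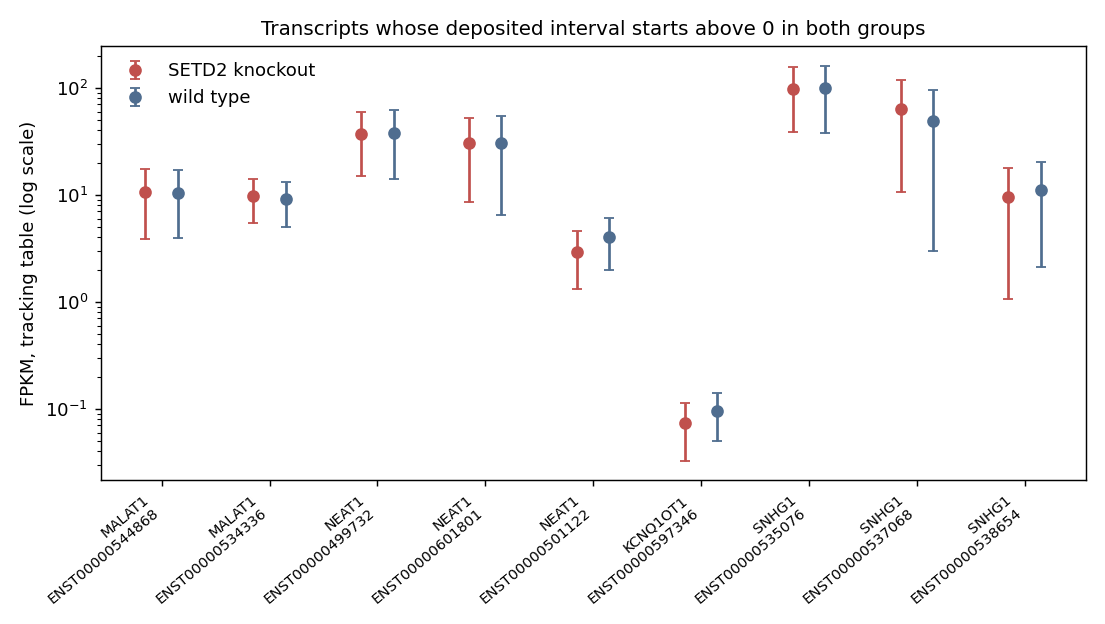
Points are the tracking-table FPKM of the transcripts whose interval starts above 0 in both groups, on a log axis, with knockout left of wild type, and bars are the authors' intervals. The 8 members described above and a transcript of the KCNQ1OT1 locus under 1 FPKM are drawn, and the intervals of knockout and wild type overlap for each of them.

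MALAT1 was carried by 2 transcripts at chr11:65265233-65273940 (hg19). ENST00000534336, the anchor of the gene, stood at 11.5 FPKM in knockout cells and 9.27 FPKM in wild type cells, a 1.24-fold difference with p = 0.2455 in the authors' deposited table. In the tracking table it stood at 9.70 FPKM in knockout cells, (interval 5.43 to 14.0), and at 9.05 FPKM in wild type cells (interval 4.96 to 13.1). The intervals overlap nearly in full, and the tracking fold was 1.07. Taking the outer bounds of both groups, the fold could lie anywhere from 0.413 to 2.82. ENST00000544868 stood at 10.9 FPKM in knockout cells and 10.7 FPKM in wild type cells, with p = 0.9563 in the authors' deposited table. The remaining transcripts were ENST00000508832, at 0 in knockout cells and 0.685 FPKM in wild type cells, and ENST00000602344, at 0 in both groups.

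NEAT1 has 4 listed transcripts at chr11:65190245-65213011 (hg19), and all were tested. ENST00000499732 stood at 46.1 FPKM in knockout cells and 38.8 FPKM in wild type cells. ENST00000601801 stood at 34.9 FPKM in knockout cells and 31.3 FPKM in wild type cells. Both lay a little higher in knockout cells here, but in the tracking table their folds were 0.976 and 0.995. The anchor ENST00000501122 was the lower one in knockout cells, with 3.37 FPKM against 4.12 FPKM in wild type cells, a fold of 0.819 with p = 0.38505 in the authors' deposited table. Its tracking intervals were 1.32 to 4.54 FPKM in knockout cells and 1.97 to 6.08 FPKM in wild type cells, which overlap. ENST00000499732 exceeded the anchor 13.7 times in knockout cells and 9.43 times in wild type cells, and by tracking values 12.6 times (knockout) and 9.42 times (wild type). Setting the bounds of both transcripts at their opposite ends gives limits of 3.30 to 44.8 times in knockout cells and 2.32 to 31.4 times in wild type cells, which overlap. The files do not say which transcript is the short or the long isoform, or whether one of them is that of MIR612, the microRNA gene inside NEAT1.

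The fourth transcript of the NEAT1 locus, ENST00000384994, decided the fold of the locus sum, and whether it is NEAT1 RNA is not known here. It stood at 119.2 FPKM in knockout cells and 12.8 FPKM in wild type cells, a 9.31-fold difference that did not pass the test (p = 0.48445 in the authors' deposited table). The tracking interval ran from 0 to 1260 FPKM in knockout cells and from 0 to 400.1 FPKM in wild type cells. With it the NEAT1 sum was 2.34 times as high in knockout cells as in wild type cells. Without it the sum was 84.3 FPKM in knockout cells and 74.2 FPKM in wild type cells, a fold of 1.14 in the test table, and by tracking values 70.4 FPKM (knockout) and 72.5 FPKM (wild type), a fold of 0.970.

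The locus of KCNQ1OT1, at chr11:2465914-2882798 (hg19), spans 416885 bases, and RefSeq places KCNQ1OT1 inside KCNQ1. The files do not say which of the 9 transcripts belong to which gene. Only 3 were tested and 2 reached 1 FPKM in a group. ENST00000155840 stood at 0.528 FPKM in knockout cells and 1.05 FPKM in wild type cells (p = 0.13325 in the authors' deposited table). Its intervals, 0 to 1.48 FPKM (knockout) and 0.155 to 1.89 FPKM (wild type), overlapped. ENST00000526095 stood at 1.09 FPKM in knockout cells and 0.0905 FPKM in wild type cells (p = 0.22535 in the authors' deposited table). Its intervals were 0 to 2.57 FPKM (knockout) and 0 to 0.541 FPKM (wild type). These transcripts lay on opposite sides, so the share of ENST00000155840 in the sum was 23.3% in knockout cells and 71.9% in wild type cells. ENST00000597346, chosen after its values were seen, was the only transcript here with an interval above 0 in both groups. It stood at 0.0847 FPKM in knockout cells and 0.0970 FPKM in wild type cells and was not tested. Its intervals of 0.0327 to 0.113 FPKM in knockout cells and 0.0497 to 0.140 FPKM in wild type cells overlap.

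**Figure D3:**
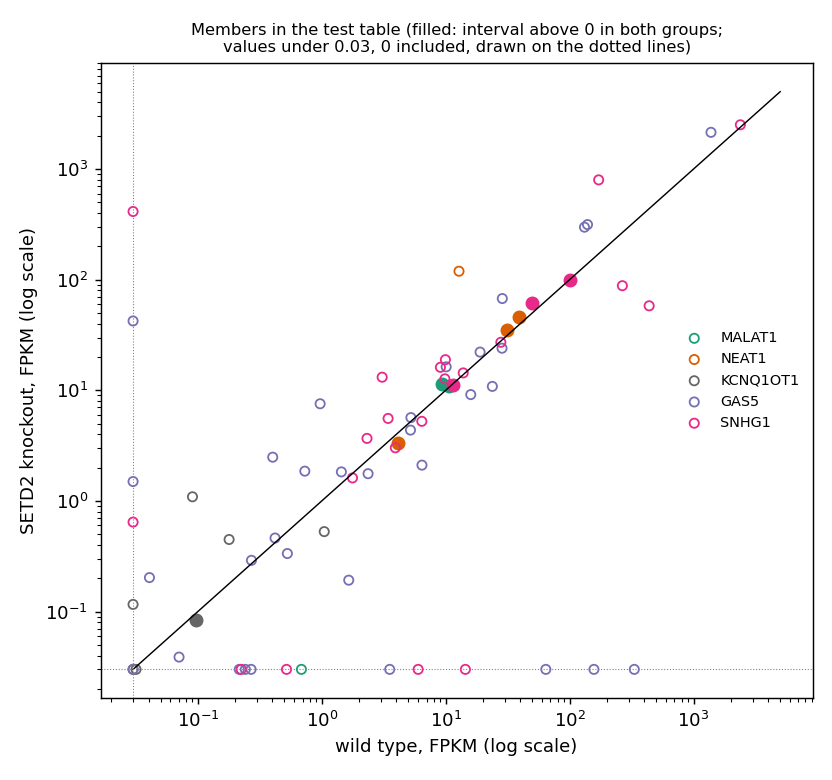
Each of the 71 members above 0 in a group is a circle, with knockout FPKM on the vertical and wild type FPKM on the horizontal axis of the test table, both log, and values under 0.03 FPKM, 0 included, on the dotted lines. Filled circles, whose interval starts above 0 in both groups, lie along the line of equality, while open circles of GAS5 and SNHG1 scatter to both sides and onto the dotted lines.

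The GAS5 locus is chr1:173832386-173872687 (hg19), and the files do not say which of its 43 transcripts belong to GAS5, its snoRNAs or ZBTB37. Of the 24 transcripts that reached 1 FPKM, 21 had an interval starting at 0 in both groups, and 0 had one starting above 0 in both. The highest, ENST00000385582, stood at 2147 FPKM in knockout cells and 1383 FPKM in wild type cells, with tracking intervals of 0 to 16368 FPKM (knockout) and 0 to 10760 FPKM (wild type). It alone held most of both sums. Without it the other transcripts summed to 835.6 FPKM in knockout cells and 981.2 FPKM in wild type cells, so the direction of the GAS5 sum rests on this transcript.

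Among the next GAS5 transcripts by level, 3 lay higher in knockout cells and 2 were listed at 0 there. ENST00000363146 stood at 314.6 FPKM in knockout cells and 139.5 FPKM in wild type cells. ENST00000425771 stood at 298.1 FPKM in knockout cells and 131.8 FPKM in wild type cells (p = 0.1259 in the authors' deposited table). ENST00000414075 stood at 67.5 FPKM in knockout cells and 28.6 FPKM in wild type cells (p = 0.1677 in the authors' deposited table). The last of these and ENST00000425771 also had tracking folds above 2, at 2.79 and 2.33, but overlapping intervals. ENST00000364084 and ENST00000364822 were listed at 0 in knockout cells in both tables and at 332.6 and 157.1 FPKM in wild type cells, with p = 0.0943 and 0.1197 in the authors' deposited table. Of the 19 GAS5 transcripts of at least 1 FPKM that were above 0 in both groups, 12 were higher and 7 lower in knockout cells. At least 2-fold differences occurred in both directions, with 7 higher and 3 lower. Over all transcripts of that level above 0 in both groups, 55.4% were higher in knockout cells and 32.4% differed at least 2-fold either way.

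SNHG1, at chr11:62619460-62623386 (hg19), holds 3 transcripts whose intervals start above 0 in both groups. ENST00000535076 stood at 99.9 FPKM in knockout cells and 101.6 FPKM in wild type cells, a fold of 0.983. The values of ENST00000537068 and ENST00000538654, chosen after they were seen, were 61.6 and 11.1 FPKM in knockout cells and 50.1 and 11.4 FPKM in wild type cells. The tracking intervals of all 3 overlapped between groups. Their outer bounds allow folds of 0.240 to 4.13 for ENST00000535076, 0.111 to 39.4 for ENST00000537068 and 0.0527 to 8.53 for ENST00000538654. Together the 3 transcripts summed to 172.6 FPKM in knockout cells and 163.1 FPKM in wild type cells, a fold of 1.06. They made up 4.14% of the SNHG1 sum in knockout cells and 4.61% in wild type cells.

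Most of the rest of the SNHG1 sum lay in 5 transcripts of high FPKM. The highest, ENST00000384693, stood at 2512 FPKM in knockout cells and 2388 FPKM in wild type cells (p = 0.9701 in the authors' deposited table). ENST00000384706 stood at 798.2 FPKM in knockout cells and 171.6 FPKM in wild type cells. On the other side, ENST00000384147 stood at 58.0 FPKM in knockout cells and 438.4 FPKM in wild type cells, and ENST00000384756 at 88.2 FPKM (knockout) and 266.5 FPKM (wild type). The p-values of these 4 in the authors' deposited table lay between 0.42765 and 0.9701, and each tracking interval started at 0. ENST00000363981 stood at 413.2 FPKM in knockout cells and was listed at 0 in wild type cells, and its p was 0.1281 in the authors' deposited table. Transcripts of the same SNHG1 locus thus lay on both sides by large factors without passing the test. These factors depend on the table. The fold of ENST00000384706 was 4.65 in the test table and 3.11 by tracking values. For ENST00000384147 it was 0.132 (test) and 0.378 (tracking), and for ENST00000384756 0.331 (test) and 0.503 (tracking).

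Being listed at 0 in a group was common among the high members. Of the 33 members of at least 10 FPKM in a group, 6 were at 0 in the other (18.2%), against 2.56% of all 15968 transcripts of that level. At loci of at most 300 bases, the size of single small RNA genes, the share was 18.1% of 171 transcripts. No member lies at a locus that short, and whether the members at 0 are small RNAs was not tested. All 6 of these high members lay at the GAS5 or SNHG1 locus, 4 of them at 0 in knockout cells and 2 in wild type cells. One of these 4, ENST00000365524 of GAS5, is at 126.7 FPKM in knockout cells and 62.6 FPKM in wild type cells by tracking values. By those values 5 of 31 members of at least 10 FPKM were at 0 in the other group (16.1%), 3 of them in knockout cells and 2 in wild type cells, against 2.15% of all 15389 transcripts of that level. Intervals that did not overlap occurred for 2 of the 53 members of at least 1 FPKM (3.77%), against 1.1% of all. These were ENST00000363981 of SNHG1 and ENST00000363840 of GAS5, the second chosen after its values were seen. Both have a wild type interval of 0 to 0, so any knockout bound above 0 keeps them apart. In the tracking table ENST00000363840 had 12.7 to 42.4 FPKM and ENST00000363981 had 244.8 to 294.4 FPKM in knockout cells. The second interval surrounds the tracking value of 269.6 FPKM and leaves out the test-table value of 413.2 FPKM.

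Over the 45 members of at least 1 FPKM and above 0 in both groups the median log2 fold was 0.23, beside 0.11 over all 56303 such transcripts. The knockout value was higher for 62.2% of these members, against 55.4% of all. At least a 2-fold difference either way was seen for 16 of them (35.6%), against 32.4% of all. Transcripts of a locus share reads, and 37 of the 45 come from GAS5 and SNHG1, so these counts describe mainly those loci.

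**Figure D4:**
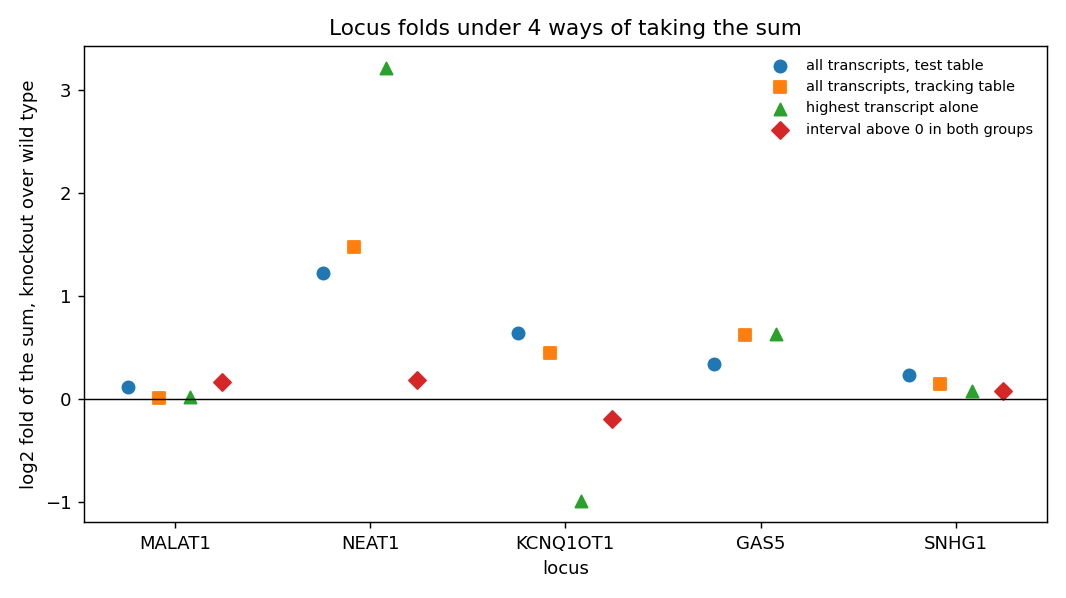
Symbols give the log2 fold of each locus sum, knockout over wild type, from all transcripts in the test table, all in the tracking table, the highest transcript alone, and transcripts whose interval starts above 0 in both groups (0 such at GAS5). At NEAT1 the 4 values run from 0.18 to 3.22 and at KCNQ1OT1 from -0.99 to 0.64, while at MALAT1 they stay between 0.01 and 0.16.

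The start sites of the members were read from RefSeq because snoRNA hosts are known for starting with C followed by a run of C and T, the oligopyrimidine start. Windows matched MALAT1, which has 2 starts, GAS5 and SNHG1. NEAT1 and KCNQ1OT1 were not matched. Each line gives 60 bases of GRCh38.p14 on the strand of the gene, with the start as base 31. Capitals mark the longest run of C and T that touches the 10 bases on either side of the start, the first where runs tie.
GAS5, chr1:173869016-173869075, minus strand: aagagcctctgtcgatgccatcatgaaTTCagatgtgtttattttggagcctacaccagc
SNHG1, chr11:62855856-62855915, minus strand: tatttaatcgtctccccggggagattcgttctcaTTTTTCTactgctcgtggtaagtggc
MALAT1 upstream start, chr11:65497708-65497767, plus strand: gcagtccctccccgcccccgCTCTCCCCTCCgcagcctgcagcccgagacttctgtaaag
MALAT1 downstream start, chr11:65499015-65499074, plus strand: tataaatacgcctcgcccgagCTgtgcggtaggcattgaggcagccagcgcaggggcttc
A start of C with at least 4 more C or T directly after it was found at 0 of these 4 starts, and at 4.07% of all 35116 RefSeq windows. At that share 0 of 4 says little, and MALAT1, with 2 of the starts, holds 0 snoRNA genes in RefSeq. SNHG1 has C as its start base, followed by T, C and then A, and a run of 7 pyrimidines from 4 bases further on. Runs at least that long near the start occur in 21.8% of all windows. The run of 11 at the upstream start of MALAT1 has its like in 6.08%, and GAS5 has a run of 3. These letters describe the annotated starts only, since the FPKM values do not show where transcripts begin.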

How the data were processed

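RNA of SETD2 knockout and wild type HEK293T cells was extracted with a column kit and depleted of ribosomal RNA, per the labels' protocols; the label of 1 wild type library carries a ChIP protocol instead. The labels list 3 libraries per group and do not say whether these were separate cultures, so the spread behind the deposited p-values may be technical. The 8 ChIP samples were not analysed here. TopHat, Cuffdiff, Bowtie 1.1.2 and the build hg19 are named in the submitters' processing notes, without saying which step each served. The sources used here do not name the annotation.

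The authors deposited FPKM values per transcript and group, with interval bounds in a tracking table. Their table of tests holds both FPKM values, a log2 fold with the knockout as its denominator, a score as test statistic, a p-value and a q-value, per the file headers. The tables named for genes and for transcripts are identical, and each transcript is its own gene there. The deposited log2 fold was not used: folds were recomputed as knockout over wild type. Of 204092 IDs, 0 matched the gene name tables, so loci are named by the fixed points and no other lncRNA or snoRNA host was looked up. Starts have 1 added, since the files count from 0.

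With group values only, calls are those of the authors' q-value at 0.05. Named in the text are the members of at least 1 FPKM in a group (at GAS5 and SNHG1 the 6 of highest mean), and others where said. Members and lists were chosen with earlier results of these data known. The interval split and the tracking count of high members at 0 were added after the values were seen. The arithmetic of sums, shares and folds was checked on 500 simulated loci with an exact fold per locus and no noise. That check says nothing about how well locus sums describe these data. Python 3.11.15, pandas 2.3.3, numpy 2.4.6 and matplotlib 3.10.9 were used.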

Additional observations from a re-analysis of the deposited data

Results flagged for a closer look

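For 4 members that the test table lists at 0 in knockout cells, the tracking table held values above 0; wild type values showed this for 0 members. ENST00000365524 of GAS5 stood at 126.7 FPKM there in knockout cells, beside 62.6 FPKM for the wild type. ENST00000539303 of SNHG1 stood at 1.30 FPKM for the knockout, beside 5.88 FPKM for the wild type, and the other 2 lay under 1 FPKM. For the 45 members of at least 1 FPKM in the knockout the tracking value was 0.652 to 2.995 times the test value, and for 46 such members in the wild type 0.974 to 0.980 times. Within 1% of 0.652, the most frequent ratio, lay 10 of these 45 knockout members, and 28.2% of all knockout transcripts of at least 0.5 FPKM. These 10 include ENST00000363981 and ENST00000363840, the members whose intervals did not overlap. The sources used here do not say how many libraries each column averages.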

How the results depend on the processing

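Of 77 alternative values over 28 results, 67 kept their direction and stayed within the limits set for a change (1.5-fold for sums and counts, 10 percentage points for shares, 5 percentile points for ranks, 0.1 for the median log2 fold). The count of called members was 0 under each alternative, but this was fixed by the smallest member q of 0.991 and p of 0.08995 (Cuffdiff). Keeping failed estimates could change nothing either, since 0 members had a failed status. These alternatives are among the 67. With the highest transcript alone, the NEAT1 sum had a log2 fold of 3.22 and the KCNQ1OT1 locus one of -0.99, against 1.23 and 0.64 for all transcripts. With transcripts whose interval starts above 0 in both groups, an alternative chosen after seeing the data, the log2 folds were 0.18 at NEAT1 and -0.20 at KCNQ1OT1; GAS5 gave no value. The median log2 fold of members, 0.23, became 0.13 with no minimum, 0.033 in the tracking table, 0.088 with the interval condition and 0.11 without GAS5. In the tracking table the knockout share of ENST00000384994 in NEAT1 was 70.3%, and that of ENST00000155840 in the KCNQ1OT1 locus 33.5%. The cause of these shifts between tables was not tested. Of the 54 members above 0 in both groups and both tables, the fold changed side between the tables for 9, with absolute log2 folds of up to 0.66 in the test table and 1.58 in the tracking table; 3 of the 9 were under 1 FPKM in both groups. No paired analysis was possible because the columns hold group values, and for the same reason no replicate could be left out. The depth is unknown, and the smallest fold among the 154 called transcripts above 0 in both groups was 1.70.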
